A study of Mus musculus with 88 samples.

Results

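The punches described here are 15 pieces of mouse cortex taken from the injured hemisphere 24 h after a controlled cortical impact, out of 88 libraries in the series. They were chosen by their titles alone, as the ipsilateral injured libraries collected at 24 h, and 7 came from batch A and 8 from batch B, as the labels letter them. The mice were C57BL/6 animals aged 8 to 9 weeks. Under anaesthesia and 0.05 mg/kg buprenorphine, a 3 mm craniotomy was opened over the right somatosensory cortex and a 2 mm tip struck the brain at 6.0 m/s to a depth of 1 mm for 100 ms. The animals were perfused, a 4 mm punch was cut from each hemisphere, and polyadenylated RNA was sequenced. The 15 animals are 7 females and 8 males. Batch A holds the females DF2, DF3 and FF3 and the males DM2, FM2, FM3 and HM2, and batch B holds the females QF1, QF2, RF1 and RF2 and the males QM1, QM2, RM1 and RM2. The contralateral punches of the same 15 animals and the ipsilateral punches of 13 naive mice serve only as a background for the spread. The naive mice had no surgery, so the impact, the craniotomy and the drug cannot be told apart against them. The sources used here give neither lesion size nor the exact hour of collection.

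A cortical impact kills tissue at the contact site and opens the vessels around it. Within the first day neutrophils enter from the blood, drawn by CXC chemokines and interleukin-1, while microglia and astrocytes change their state and surviving tissue responds to poor blood supply. Type I interferon switches on a set of antiviral genes. Neuronal activity switches on immediate early genes such as Fos, Arc and Npas4 within minutes, and their transcripts are short-lived. All levels below are CPM, a gene's count per 1000000 counts of its library after TMM scaling, and all spreads are the standard deviation (SD) of log2 CPM after each batch was centred on its own mean, over the 15 animals.

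Library totals ran from 15062845 to 26357622 counts with a median of 16293072, and mitochondrial genes took 3.36% to 4.92% of them. The vesicular glutamate transporter gene Slc17a7, a marker of cortical excitatory neurons, lay between 1406 and 1851 CPM, so it was present in every punch. Several punches stood apart before any comparison was made. DM2 held 1222 CPM of skeletal muscle genes, against 19.68 to 25.25 CPM in the other 14. It also held 557 CPM of bone genes and 394.2 CPM of the granule genes of immature neutrophils. RF1 came next for both lists, with 135.9 CPM of bone genes and 17.56 CPM of granule genes, against at most 48.68 and 2.161 CPM in the remaining 13. The bone list summed to 47.96 to 101.5 CPM in the contralateral and 37.32 to 197.2 CPM in the naive punches. RF1 thus lay within the naive range for bone genes. For the granule list the contralateral punches reached 4.35 CPM and the naive ones 10.09 CPM. QF2, DF3, RM2 and DF2 held 182 to 334.6 CPM of genes of the hippocampal CA fields, a region that lies beneath the punched cortex, against 55.9 to 100.4 CPM in the other 11. These 4 lists were put together after such genes had been seen, so their values are a description. The part played by muscle, bone, marrow or hippocampal RNA in the results below was not tested except where a value is given. In bulk tissue, fewer cells of a type and less RNA per cell cannot be told apart.

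Most genes varied little between the injured punches. Over the 12223 genes with a mean of at least 5 CPM, sex-linked genes set aside, the median SD was 0.147 log2 units and the 90th percentile was 0.308. There were 47 genes (0.384%) with an SD over 1, and 35 of the same 12223 when DM2 was left out of the SD. The median SD was 0.151 in the contralateral punches, where 26 genes had an SD over 1, and 0.202 in the naive punches, where 47 genes had an SD over 1 as in the injured ones. In a principal component analysis the first component took 24.6% of the variance and the second 15.5%. Sex-linked genes, which that analysis kept, led the first component, with the neutrophil genes Ltf and Ngp and the hippocampal gene Fibcd1 behind them. Mmp13, Ltf, Ngp, Acod1, Myh1 and Myh4 led the positive side of the second.

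The 12 genes with the largest SD fall into a few kinds. Neutrophil granule genes were among them, with Ngp (chr9:110419747-110423012 in GRCm38, the build of all gene coordinates below) at an SD of 2.62 and Ltf, which encodes lactoferrin, at 2.41. Ngp was at 142.4 CPM in DM2, 8.869 CPM in RF1 and at most 0.7596 CPM in the other 13, and its SD was 1.48 without DM2. The fast skeletal muscle genes Myh4, Atp2a1 and Myh1 had SDs of 2.20, 1.88 and 1.86. Myh4 stood at 254.9 CPM in DM2 against 0.2701 to 1.101 CPM elsewhere, so its spread was the spread of 1 punch, and its SD was 0.45 without DM2. Mmp13, a collagenase made in bone among other tissues, had an SD of 2.29, with 72.38 CPM in DM2 and 5.528 CPM in RF1. Acod1, which makes itaconate in activated macrophages, and the neutrophil chemokine gene Cxcl3 had SDs of 1.64 and 1.58. Npas4 and Fosb, both induced by neuronal activity, had SDs of 2.21 and 1.57. Fibcd1, a gene of hippocampal CA1 neurons, had an SD of 1.94. The last of the 12, the predicted gene Gm21887, had an SD of 2.51 here and 2.46 in the contralateral punches, and it may share reads with near-identical copies. Counting error, computed at each gene's mean CPM, was at most 0.142 log2 units for any of the 12. For Ngp, Ltf, Mmp13, Myh4, Atp2a1 and Myh1 that mean was set largely by DM2, and counting error was larger in the other punches. Without DM2, 9 of the 12 stayed among the 12 most variable.

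**Figure D1:**
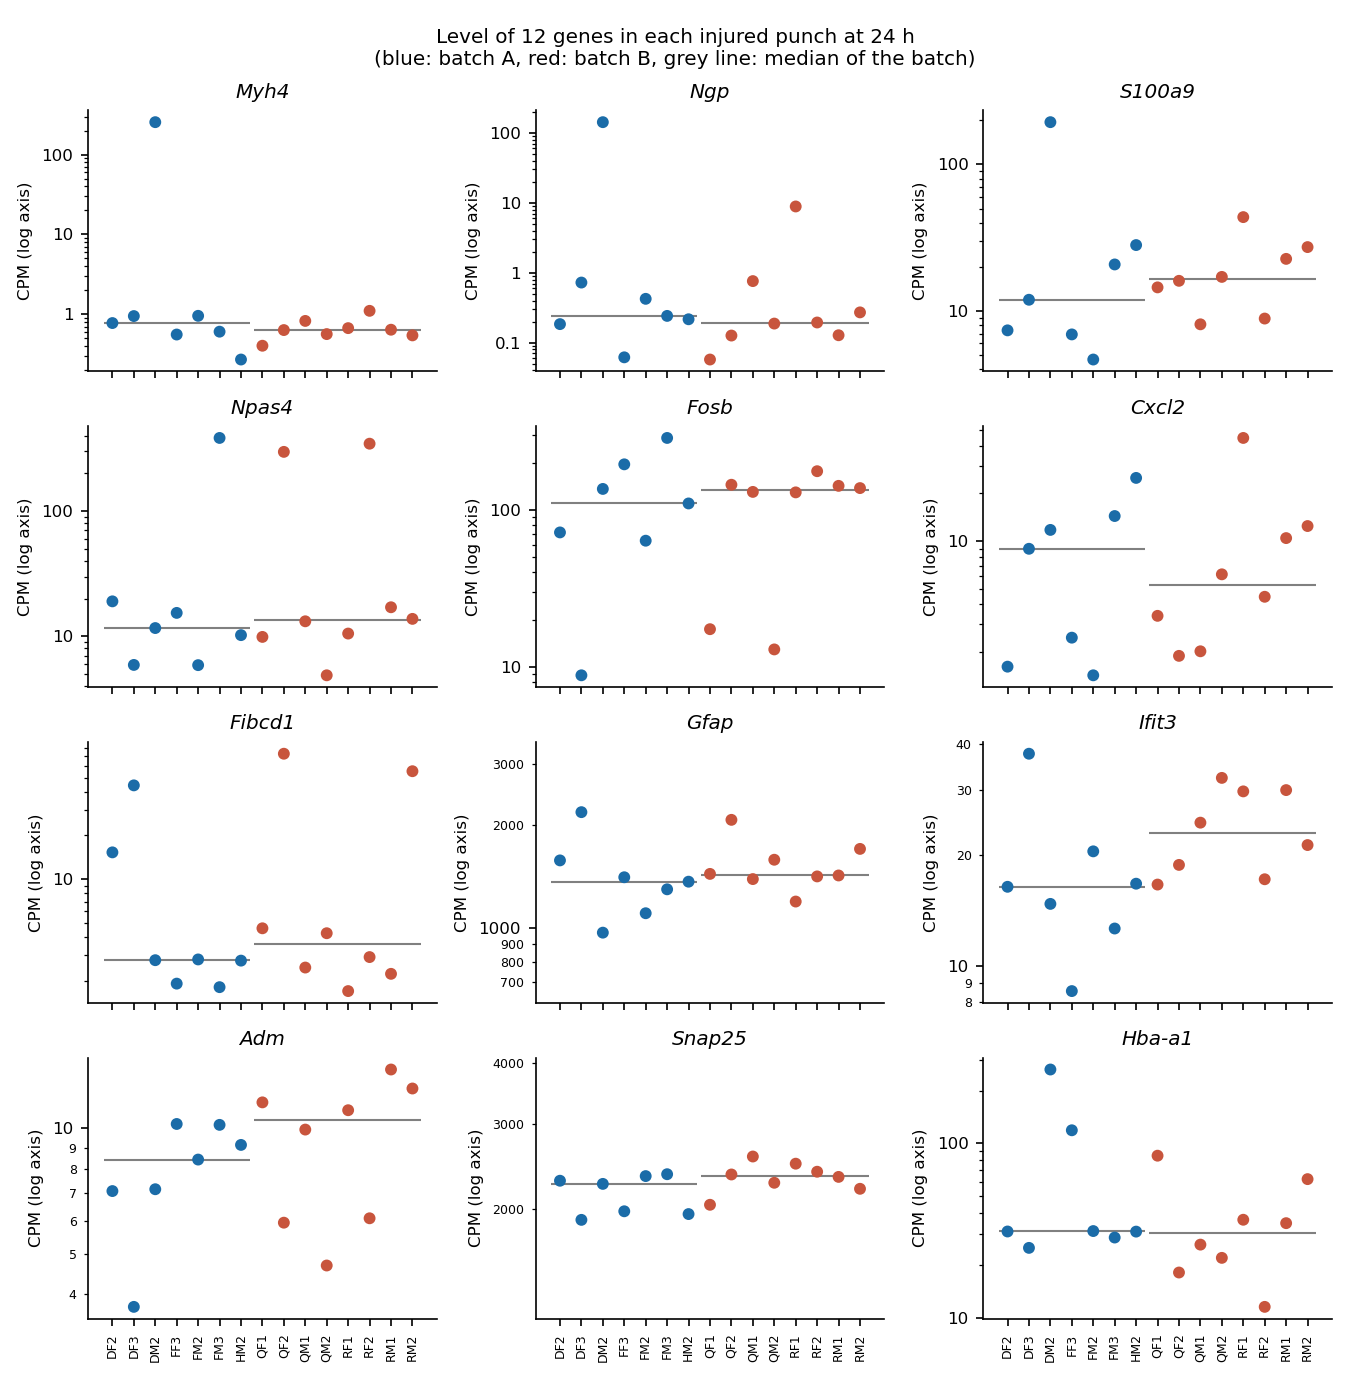
Level (vertical axes, CPM, log scale) of 12 genes in each of the 15 injured punches (horizontal axis, animals), with batch A in blue, batch B in red and the median of each batch as a grey line. Myh4 and Ngp are high in DM2, Npas4 separates FM3, QF2 and RF2 from the other 12 animals, Fibcd1 separates DF2, DF3, QF2 and RM2 from the other 11, and Snap25 stays between 1898 and 2565 CPM.

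S100a9 (chr3:90692632-90695721) encodes a subunit of calprotectin, an abundant cytosolic protein of neutrophils. Its level ran from 4.66 CPM in FM2 through a median of 16.05 CPM to 194.2 CPM in DM2, with RF1 next at 43.68 CPM. The contralateral punches held 0.189 to 3.03 CPM, so every injured punch was above every contralateral one. The SD was 1.36, and 0.885 without DM2. To find the genes that varied with it, each gene was fitted with edgeR's quasi-likelihood test on batch and on the log2 CPM of S100a9. A slope is then the log2 change of a gene per log2 unit of S100a9, and an adjusted p is the Benjamini-Hochberg value over all genes fitted. Of 19128 genes fitted, 369 rose with S100a9 and 0 fell (1.93% called), and 143 were called without DM2. At an unadjusted p under 0.05 there were 1806, and DESeq2 called 535.

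The neutrophil list rose as a group with S100a9. Of its 13 fitted members 12 rose, with a median slope of 0.897 against 0.001 over all genes, and 6 rose without DM2. S100a8, the partner subunit, rose by 0.897 ± 0.047 log2 units per unit of S100a9 (slope ± SE, 15 libraries, edgeR adjusted p = 3.399e-09), and by 0.805 without DM2. Mmp9, a matrix protease of neutrophil granules, rose by 0.839 ± 0.044, and by 0.744 without DM2 (edgeR adjusted p = 0.000123). Both therefore kept their call when the punch with the most neutrophil RNA was set aside. The granule genes that mark immature neutrophils did not. Ngp had a slope of 2.18, and 1.38 without DM2 with an edgeR adjusted p of 0.4353. Ltf had 1.83, and 1.28 without DM2 with an edgeR adjusted p of 0.24. Myh4, a muscle gene with no known part in neutrophils, had a slope of 1.74 ± 0.176 in the same fit and stood above 1.101 CPM in DM2 alone.

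Some of the genes for neutrophil attractants and the interleukin-1 system rose with S100a9. Of the 8 on the list, 4 rose, 4 rose without DM2, and 1 rose with S100a8 in place of S100a9. The 4 that rose are Cxcl2, Cxcl3, Il1b and Il1rn, and each had a steeper slope without DM2. Cxcl2, a ligand of the neutrophil receptor CXCR2, was at 1.43 CPM in FM2, 25.07 CPM in HM2 and 44.77 CPM in RF1 around a median of 6.189 CPM. Its slope was 1.07 ± 0.239 (edgeR adjusted p = 0.02215), and 1.70 without DM2. Cxcl3, a second ligand of that receptor, had a slope of 1.05 ± 0.205, and 1.67 without DM2. Il1b, which encodes interleukin-1 beta, ran from 2.648 to 34.81 CPM and had a slope of 0.619 ± 0.133, and 1.04 without DM2. Il1rn, the secreted antagonist of the interleukin-1 receptor, had slopes of 0.621 and 1.04. FM2 was the lowest animal for 5 of the 7 members of this list with a mean of at least 1 CPM, and for 8 of 13 neutrophil genes.

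Myeloid genes outside the neutrophil list varied with S100a9 as well. Among monocyte and macrophage genes 8 of 12 rose, and 4 without DM2. Lyz2, which encodes lysozyme, had a slope of 0.559, and 0.576 without DM2 (edgeR adjusted p = 0.00745). Among activated microglia genes 6 of 14 rose, and 5 without DM2, with Clec7a, the beta-glucan receptor dectin-1, at 0.499 and 0.838. The complement gene C3 was the only one of 15 reactive astrocyte genes that rose, with a slope of 0.649 ± 0.069, and 0.858 without DM2. It is made by myeloid cells too. All 3 fitted platelet genes rose, and 2 did without DM2. Col1a1, Col1a2 and Col3a1, fibrillar collagen genes of the meningeal list, rose with all 15 punches and 0 of that list rose without DM2. Col1a1 is also a bone gene, and it was at 200 CPM in DM2 and 48.78 CPM in RF1, where the naive punches reached 61.03 CPM. The proliferation marker Mki67 had a slope of 0.461 (edgeR adjusted p = 0.02869) that became -0.147 without DM2, where it was not called. DM2 had the highest level of all 12 cell cycle genes, with Mki67 at 49.44 CPM against 3.379 to 14.32 CPM in the others.

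**Figure D2:**
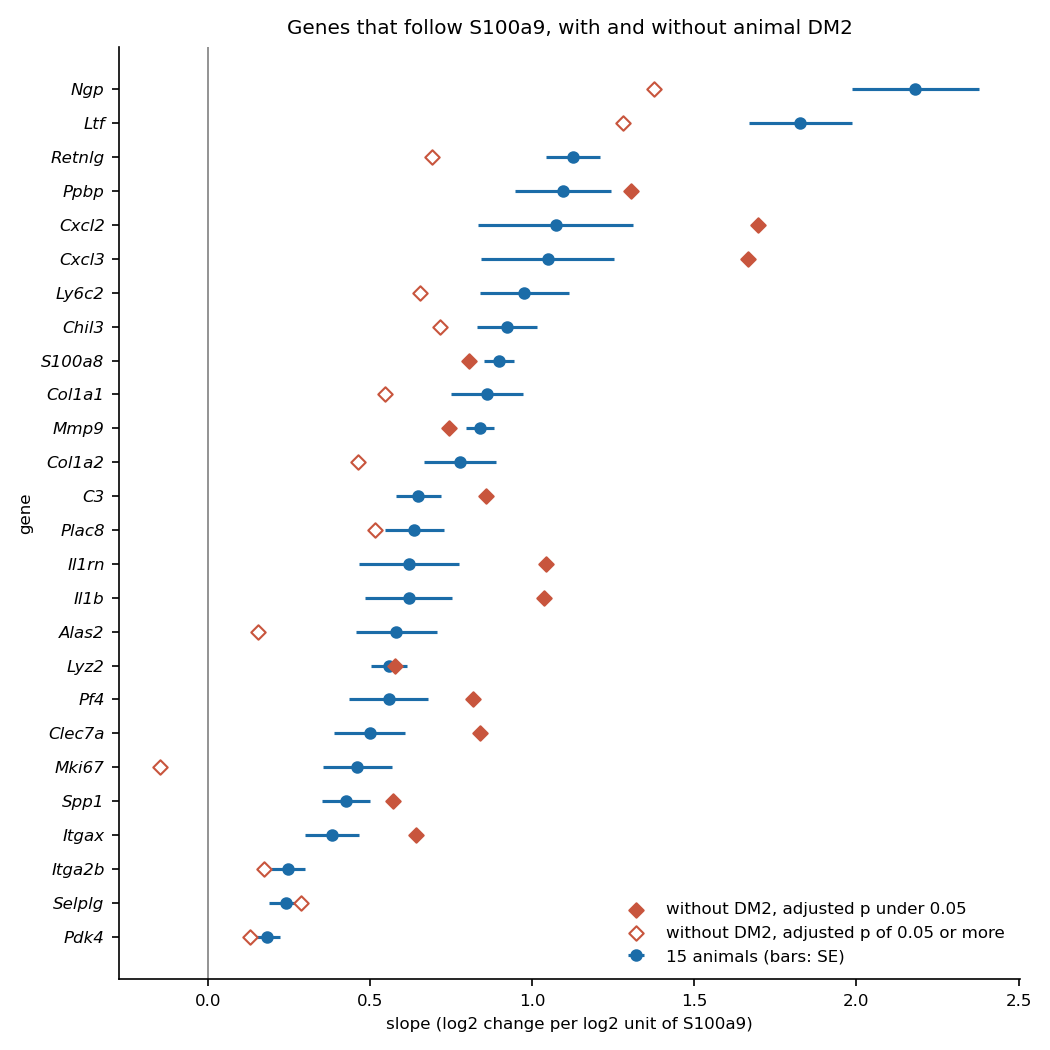
Slope on S100a9 (horizontal axis, log2 change per log2 unit of S100a9) of 26 called genes from the lists: blue points with bars are slope and SE over 15 animals, and diamonds are slopes without DM2, filled where the adjusted p stayed under 0.05. Cxcl2, Cxcl3, Il1b and Clec7a moved to steeper slopes without DM2, whereas Ngp, Ltf, Retnlg and Mki67 moved to shallower ones and were no longer called.

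The interferon genes formed the second group that varied together, and DM2, the highest animal for neutrophil genes, was not among its highest. Ifit3 (chr19:34583531-34588731), an antiviral effector that binds the RNA sensor Ifit1, ran from 8.58 CPM in FF3 through a median of 18.83 CPM to 37.64 CPM in DF3, followed by QM2, RM1 and RF1 at 32.38, 30.01 and 29.77 CPM. The contralateral punches held 4.794 to 12.21 CPM, so the lowest injured punches overlapped with the contralateral range. Many genes of this kind carry the interferon-stimulated response element upstream of their start, whose core repeats GAAA after a short spacer. The 250 bases before the RefSeq start of 4 of them (GRCm38.p6, 5′ to 3′ on the gene's strand) are shown because these genes moved together here. Capitals mark each match to GAAA, any 2 bases and GAAA, read on both strands, so a match on the other strand appears as TTTC, any 2 bases and TTTC. Ifit1 (chr19:34640639-34640888, plus strand) holds 2 matches, Ifit3 (chr19:34583279-34583528, plus strand) holds 2, Isg15 (chr4:156200819-156201068, minus strand) holds 3 that overlap, and Rsad2 (chr12:26456453-26456702, minus strand) holds 1.
Ifit1: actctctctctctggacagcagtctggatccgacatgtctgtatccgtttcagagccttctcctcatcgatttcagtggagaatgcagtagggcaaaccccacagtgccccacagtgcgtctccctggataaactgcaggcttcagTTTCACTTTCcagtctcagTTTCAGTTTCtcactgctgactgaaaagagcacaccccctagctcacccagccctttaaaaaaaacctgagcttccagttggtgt
Ifit3: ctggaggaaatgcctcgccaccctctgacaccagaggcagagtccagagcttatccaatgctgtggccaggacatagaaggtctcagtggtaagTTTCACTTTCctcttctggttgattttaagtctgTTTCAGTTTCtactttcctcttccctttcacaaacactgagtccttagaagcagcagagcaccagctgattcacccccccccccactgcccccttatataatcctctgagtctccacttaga
Isg15: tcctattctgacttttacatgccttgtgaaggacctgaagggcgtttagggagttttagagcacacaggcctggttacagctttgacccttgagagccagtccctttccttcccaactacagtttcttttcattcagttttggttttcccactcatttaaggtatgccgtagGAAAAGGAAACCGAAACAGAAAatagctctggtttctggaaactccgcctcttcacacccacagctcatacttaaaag
Rsad2: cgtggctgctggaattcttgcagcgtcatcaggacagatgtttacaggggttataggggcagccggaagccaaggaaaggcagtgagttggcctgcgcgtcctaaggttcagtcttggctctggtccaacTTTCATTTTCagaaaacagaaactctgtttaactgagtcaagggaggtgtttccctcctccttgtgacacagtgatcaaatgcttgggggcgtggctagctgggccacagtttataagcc

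Of the 28 genes of the interferon list, 20 had a promoter entry of 300 bases in RefSeq, and 13 of those held at least 1 match. Of the members called in the fit below and Ifit3 itself, 8 had an entry and 6 a match. Oasl2 and Cmpk2 were called and had none. Over all promoters the share was 3.44%, or 1131 of 32851, counted by entry and not by gene. A match is a description of the sequence and not evidence of binding.

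Of 19128 genes fitted on Ifit3, 23 were called (0.12%), of which 21 rose (0.11%) and 2 fell (0.0105%). At an unadjusted p under 0.05 there were 1569. DESeq2 called 161, of which 76 rose and 85 fell, and without QF1 edgeR called 18 that rose and 11 that fell, so the balance of directions depended on the tool and on that animal. Interferon genes made up 11 of the 21, out of 27 members fitted, and their median slope was 0.841 against 0.008 over all genes. Without DF3, the animal with the highest Ifit3, 6 genes were called, 4 of them interferon genes. Without DM2, 12 interferon genes were called, so the punch that set the granule genes did not set these. With Isg15 in place of Ifit3, 14 were.

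Ifit1, whose promoter is shown above, ran from 4.506 to 30.18 CPM and rose with Ifit3 by 1.39 ± 0.144 (edgeR adjusted p = 0.0002634). Isg15, a ubiquitin-like protein that is joined to other proteins, ran from 3.148 to 16.87 CPM and rose by 1.22 ± 0.130 (edgeR adjusted p = 0.0003003). Rsad2, which encodes the antiviral enzyme viperin, had the steepest slope of the called list members at 1.84 ± 0.276. It was at 2.346 CPM in FF3, at a median of 14.15 CPM and at 49.61 CPM in DF3, and the contralateral punches held 0.635 to 2.265 CPM, so for Rsad2 the hemispheres did not overlap. Mx1 and Mx2, genes of the dynamin-like GTPase family, had slopes of 1.61 and 1.09. Usp18, which removes Isg15 from proteins and dampens the receptor, had a slope of 1.00, Oasl2 0.99, Ifit3b 0.877 and Rtp4 0.832. The RNA sensor gene Ifih1 and the nucleotide kinase gene Cmpk2 had the shallowest called slopes at 0.48 and 0.382. The 2 genes that fell were Adcyap1, which encodes the neuropeptide PACAP, with a slope of -0.862 (edgeR adjusted p = 0.0112), and the immediate early gene Csrnp1 with -0.47 (edgeR adjusted p = 0.03193).

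Averaged over the 28 genes, batch-centred log2 CPM was highest in DF3 at 0.903, then RF1 at 0.662 and QM2 at 0.511, and lowest in QF1 at -0.768 and FF3 at -0.686. DF3 was among the 3 highest animals for 28 of 28 genes and the highest for 16. The mean pairwise correlation among the 28 genes over the 15 punches was 0.702, with the libraries shared by every pair. The neutrophil list had a mean of 0.71, and 0.622 without DM2.

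**Figure D3:**
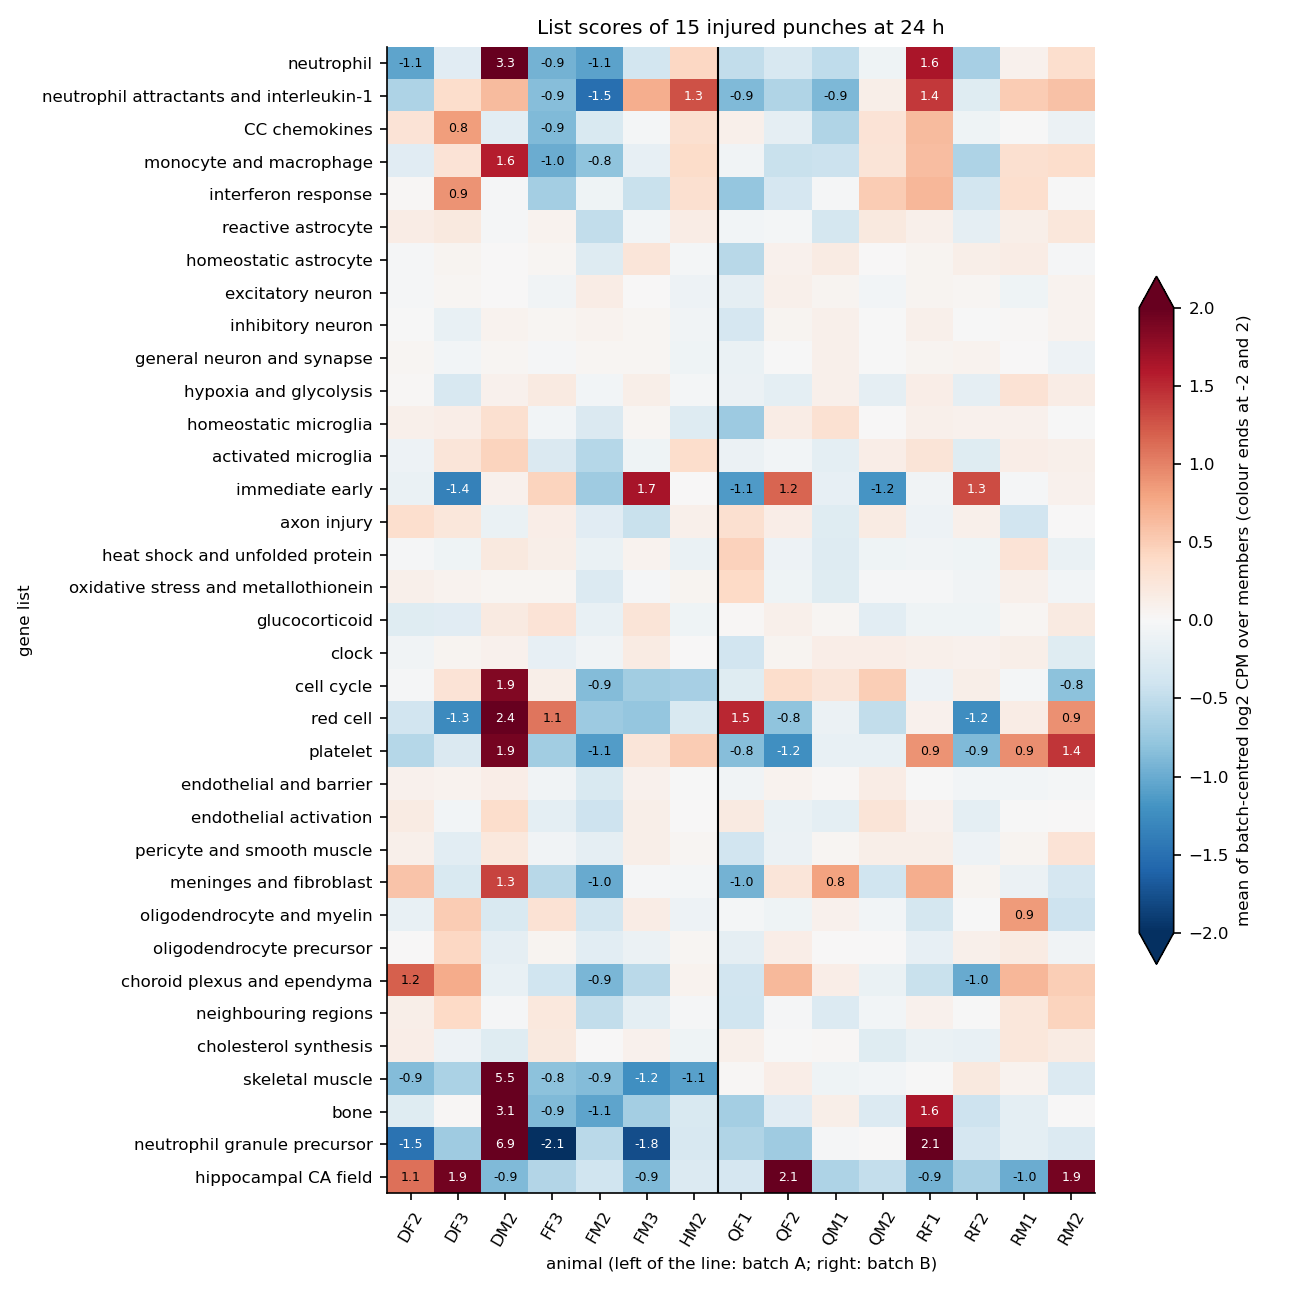
Mean batch-centred log2 CPM (colour, ends at -2 and 2, with the larger means printed in the cells) of each gene list (rows) in each of the 15 injured punches (columns, batch A left of the line and batch B right of it). DM2 is high for muscle, bone, granule, red cell and cell cycle genes, DF3 for interferon genes, and FM3, RF2 and QF2 for immediate early genes, while the neuron rows stay near 0.

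Gfap (chr11:102887336-102900912), the intermediate filament of reactive astrocytes, varied much less than the immune genes. It ran from 972.2 CPM in DM2 through a median of 1416 CPM to 2176 CPM in DF3, with QF2 at 2067 CPM and RM2 at 1702 CPM. The SD was 0.306. Every injured punch was above every contralateral punch, although QF1 had 825.1 CPM on its contralateral side where the other 14 animals had at most 267.7 CPM. Of 19128 genes fitted on Gfap, 209 were called (1.09%), of which 138 rose (0.721%) and 71 fell (0.371%). At an unadjusted p under 0.05 there were 2717. The excess of rising genes was smaller with no count filter, at 169 against 144, and nearly gone with DESeq2, at 250 against 247, and without QF1, at 201 against 193. Without DF3, 34 genes were called in all.

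Few genes of the 2 astrocyte lists were called with Gfap. Of 14 reactive astrocyte genes fitted besides Gfap itself, 2 rose, where 0.721% of all genes did. The median slope of the 14 was 0.256 against -0.004 over all genes. Of 12 homeostatic astrocyte genes 0 were called, with a median slope of 0.032. Serpina3n, a secreted protease inhibitor, ran from 162.8 to 348.3 CPM and had a slope of 0.853 ± 0.178 (edgeR adjusted p = 0.02549). S1pr3, a sphingosine-1-phosphate receptor, ran from 47.68 to 85.51 CPM and had a slope of 0.772 ± 0.154 (edgeR adjusted p = 0.0192). Neither was called without DM2 or without DF3. With Vim as the anchor in place of Gfap, 1 gene was called in all.

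Among genes with a mean of at least 5 CPM, the 5 rising genes with the smallest p on Gfap were Crym, Slc44a5, Neurod6, Zbtb20 and Thbs4. Neurod6, a transcription factor of pyramidal neurons including those of the hippocampus, rose by 2.09 ± 0.235 (edgeR adjusted p = 0.0002642), and by 2.25 without DM2. Crym, a thyroid hormone binding protein, rose by 1.28 ± 0.141, the transcription factor gene Zbtb20 by 1.36, Slc44a5 by 1.24 and the thrombospondin gene Thbs4 by 3.24 ± 0.397. Olig1 of the oligodendrocyte lineage rose by 0.76. The neutrophil list genes Ngp, Camp, Ltf, Retnlg and Wfdc21 fell with Gfap, and 0 genes of that list did without DM2, the animal lowest in Gfap.

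The 4 punches rich in hippocampal genes were among the higher ones for Gfap. Fibcd1 (chr2:31813290-31846005) was at 72.87 CPM in QF2, 55.25 CPM in RM2, 44.16 CPM in DF3 and 15.29 CPM in DF2, against 1.701 to 4.596 CPM in the other 11. The contralateral punches held 3.435 to 12.86 CPM. Gm2115, a second gene of that region, was at 38.76 to 81.21 CPM in the same 4 and 7.836 to 12.98 CPM in the rest. These 4 animals were the 4 highest for all 6 hippocampal genes. When the log2 CPM of Fibcd1 was added to the fit on Gfap, a step chosen after these values were seen, 40 genes were called in place of 209, of which 6 rose and 34 fell, and 0 reactive astrocyte genes were called.

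General synaptic genes varied little between the punches. Snap25 (chr2:136713453-136782428), a SNARE protein of the synaptic vesicle machinery, ran from 1898 CPM in DF3 through a median of 2286 CPM to 2565 CPM in QM1, with an SD of 0.119, below the median of all genes. Of the 12 general neuron and synapse genes 1 had an SD above the median of all genes with a mean of at least 1 CPM, which was 0.182. The figure was 8 of 12 for excitatory and 7 of 12 for inhibitory neuron genes. Of 18079 genes fitted on Snap25, 9 were called (0.0498%), of which 8 rose (0.0443%) and 1 fell (0.00553%). There were 2008 at an unadjusted p under 0.05, and DESeq2 called 240. None of the neuron list members was among the 9, out of 12 excitatory, 12 inhibitory and 11 general genes fitted. The count was 51 without DF3, 32 without FM2, and 0 without DM2, FM3, HM2, QM1, QM2, RF1, RF2 or RM1. The clock gene Nr1d1 had a slope of 1.71 ± 0.257 (edgeR adjusted p = 0.03806), and 1.68 without DM2 (edgeR adjusted p = 0.06391). Gabra3, Camk4, Rasgef1b and the muscarinic receptor gene Chrm2 also rose. Cebpd, an inflammatory transcription factor, fell with a slope of -1.72 (edgeR adjusted p = 0.04167).

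Genes that neuronal activity induces behaved differently from the synaptic genes and split the animals sharply. Npas4 (chr19:4984355-4990316), which is induced by calcium entry into neurons, was at 384.2 CPM in FM3, 345.7 CPM in RF2 and 297.4 CPM in QF2, against 4.876 to 19.01 CPM in the other 12 and 9.605 to 37.75 CPM in the contralateral punches. Arc, a synaptic capsid-like protein, was at 570.3, 737.4 and 668.9 CPM in the same 3 animals and 122.6 to 234 CPM in the others. Nr4a1, an orphan nuclear receptor, was at 251.7, 232.4 and 223 CPM against 25.67 to 58.86 CPM. No other animal reached these 3 for any of these genes. FM3 was among the 3 highest for 12 of 12 immediate early genes, and RF2 and QF2 for 10 of 12 each. Fosb separated the other end, with DF3 at 8.854 CPM, QM2 at 12.94 CPM and QF1 at 17.41 CPM against 63.71 to 287.4 CPM in the other 12. The list means were 1.65, 1.30 and 1.17 in FM3, RF2 and QF2, and -1.35, -1.18 and -1.13 in DF3, QM2 and QF1. The contralateral SD of Npas4 was 0.535 against 2.21 on the injured side, but 0 of the 12 immediate early genes were called for a larger spread in the limma test described below.

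A second order of the animals ran through other genes. It was noticed in the values and no test was made of it. Homer1, a postsynaptic scaffold gene whose short form is induced by activity, was at 143 CPM in QM2, 144.9 in QF2, 154.3 in DF3, 156.9 in QF1 and 158.7 in RF2, against 305.9 to 468.6 CPM in the other 10. The contralateral punches lay at 180.3 to 306.8 CPM, above the 5 low animals and reaching just past the lowest of the other 10. The same 5 animals were the 5 lowest for 163 of 12228 genes, and the 5 highest for 50. For 21 of the 163 the gap between the fifth and the sixth lowest animal was at least 1.2-fold. They include the TGF-beta-inducible factor gene Klf10, at 41.4 to 60.89 CPM in the 5 and 99.53 to 147 CPM in the 10, the repressor genes Zbtb1, Zbtb16 and Bcor, the prohormone convertase gene Pcsk1 and the metalloprotease gene Adam19. Nptx2, a secreted synaptic pentraxin, was at 71.44 to 230.3 CPM against 273.5 to 666.6 CPM. Vegfa showed the same order with a narrow gap, at 56.58 to 76.18 CPM against 78.63 to 123.1 CPM. The order is not that of Npas4, since QF2 and RF2 were high for Npas4 and low for Homer1. Of the 5, 4 are from batch B, and all but QM2 are females. The order was read from CPM that were not centred by batch or sex.

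Adm (chr7:110627661-110629820) encodes adrenomedullin, a vasodilator peptide induced by the hypoxia factor HIF-1. It ran from 3.731 CPM in DF3 and 4.689 CPM in QM2 through a median of 9.13 CPM to 13.85 CPM in RM1, with an SD of 0.541. The contralateral punches held 0.6849 to 2.862 CPM, below every injured punch. Of 18480 genes fitted on Adm, 110 were called (0.595%), of which 86 rose (0.465%) and 24 fell (0.13%). There were 2588 at an unadjusted p under 0.05, and DESeq2 called 582. Without DF3, the lowest animal, 0 genes were called by edgeR and 1387 had an unadjusted p under 0.05. Without FF3, QF2 and RF2 in turn, 35, 26 and 23 were, and without QF1 343 were.

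Of 16 other hypoxia and glycolysis genes fitted, 1 rose with Adm. It was Vegfa (chr17:46016993-46032369), the endothelial growth factor, with a slope of 0.633 ± 0.091 (edgeR adjusted p = 0.005612). With Vegfa as the anchor 610 genes were called, 7 of them in the list. Fam43a had a slope of 0.657 ± 0.086, Adam19 0.915 (edgeR adjusted p = 0.005612) and Nptx2 1.45 (edgeR adjusted p = 0.02118). The last of these rose although the median slope of the immediate early list was 0.03. The VEGF receptor gene Flt1 rose by 0.38 and the cholesterol synthesis gene Hmgcs1 by 0.373. RM1 was the highest animal for 7 of 16 hypoxia genes and DF3 the lowest for 8. The genes with the smallest p among those that fell with Adm were AI593442, Limd2, Pik3ip1, Flrt3 and Apcdd1.

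**Figure D4:**
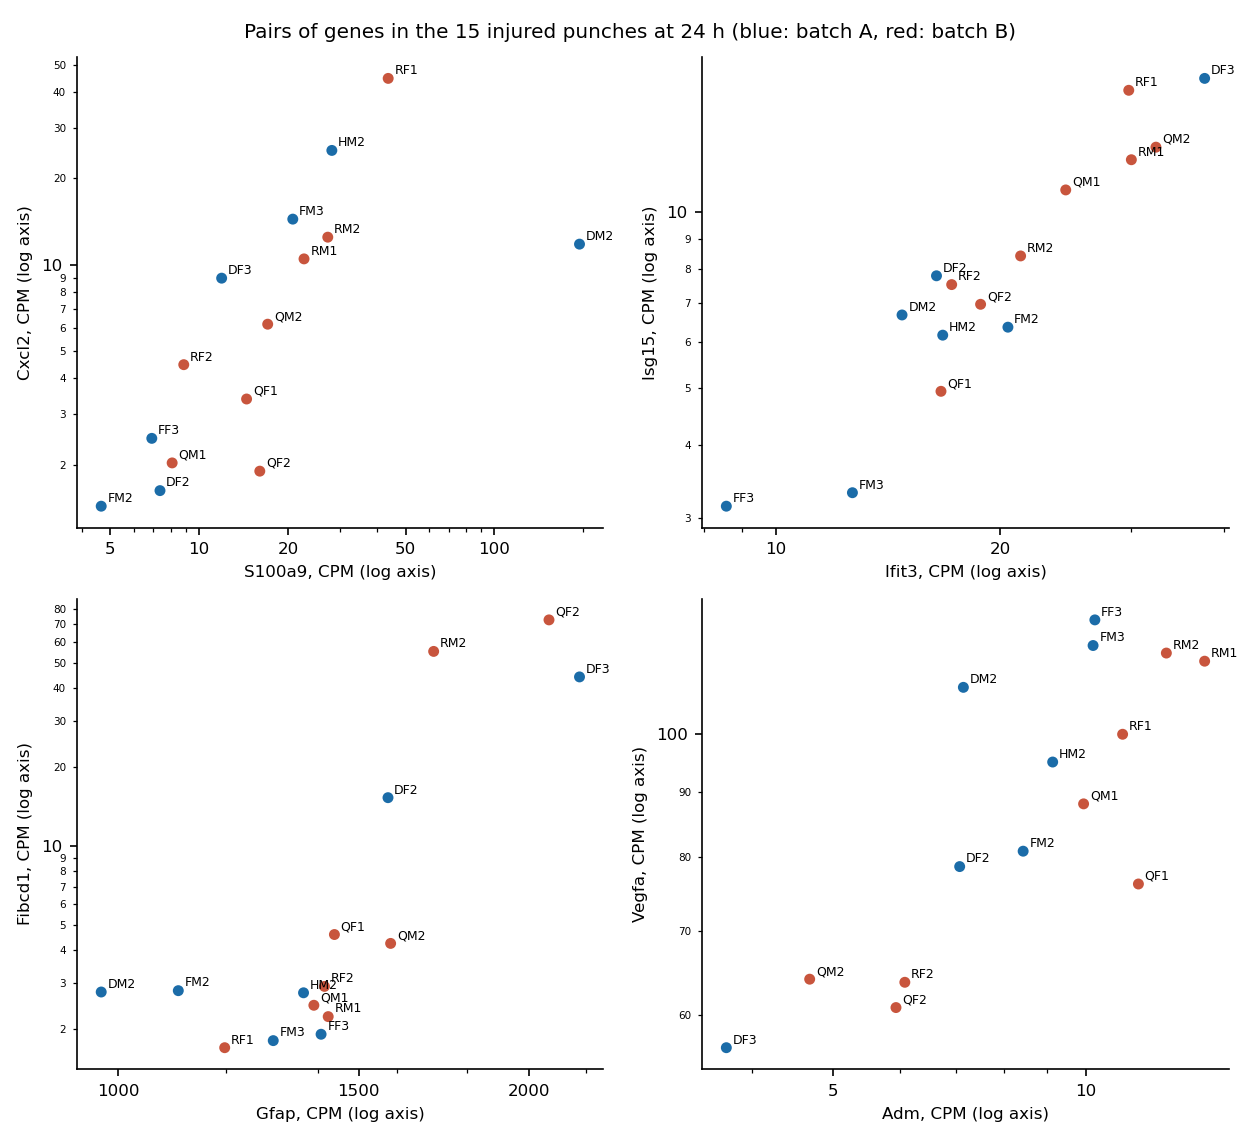
Pairs of genes in the 15 injured punches (both axes in CPM, log scale), one labelled point per animal, with batch A in blue and batch B in red. Cxcl2 increases with S100a9 except in DM2, Isg15 follows Ifit3, the 4 punches rich in Fibcd1 are among the higher ones for Gfap, and QM2, RF2, QF2 and DF3 are the lowest for both Adm and Vegfa.

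Some animals stood apart for a whole list that had no anchor. QF1 had the lowest level of 8 of 12 homeostatic astrocyte genes. Aqp4, the water channel of astrocyte endfeet, was at 31.42 CPM there against 81.76 to 150.6 CPM in the other 14. It was also the lowest for 9 of 12 homeostatic microglia genes, with the purinergic receptor gene P2ry12 at 2.987 CPM against 5.694 to 14.08 CPM. The heat shock chaperone gene Hspa1a was at 58.65 CPM in QF1, 47.88 CPM in RM1 and 8.579 to 22.17 CPM in the others, and QF1 was highest for 6 of 9 heat shock and unfolded protein genes. RM1 had the highest level of all 12 myelin genes, with Mog, a surface protein of the myelin sheath, at 69.21 CPM against 17.37 to 44.16 CPM. FM2 had the lowest mean in 11 of the lists, among them activated microglia, where it was lowest for 10 of 13 genes. Red cell genes, which carry over with blood left in the tissue, summed to 573.5 CPM in DM2, 319.6 CPM in FF3, 214.2 CPM in QF1 and 150.6 CPM in RM2, and to 29.53 to 87.79 CPM in the rest.

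The 5 anchor genes did not line the animals up in 1 order that could be shown with 15 punches. Of the 10 pairs, 0 passed the two-sided permutation test within batches after adjustment (smallest adjusted p = 0.3627, 100000 resamples). Gfap and Adm had the largest Pearson r at -0.51 (rho -0.271, permutation p = 0.05544), with -0.64 in batch A and -0.41 in batch B. It was -0.021 without DF3 and QF2, so the relation rested on those 2 animals. Gfap and Snap25 had r = -0.491, -0.408 without the same 2 animals, and rho -0.557. Ifit3 and Adm had r = -0.433, with -0.869 in batch A and 0.057 in batch B, and 0.012 without DF3 and FF3. S100a9 and Ifit3 had r = 0.042.

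The level on the injured side did not follow that on the other side of the same brain beyond what the permutations gave for any anchor. The Pearson r between hemispheres was 0.452 for S100a9 (rho 0.3, permutation p = 0.06385, adjusted p = 0.3193), with 0.346 in batch A and 0.771 in batch B, and it lay between -0.075 and 0.234 for the other anchors. Of 20 relations of the anchors with library total, genes detected, mitochondrial share and red cell genes, 0 passed (smallest adjusted p = 0.7828). The labels give 5 steroid hormones per animal, of which testosterone was used in the 8 males only, and 0 of 25 relations passed (smallest adjusted p = 0.6103). The one with the smallest unadjusted p was Gfap with progesterone, at r = 0.618 (rho 0.543, permutation p = 0.03865), which was 0.199 without QF2 and DF3.

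The spread of each gene was then compared with that in the punches without impact. The test was limma on the absolute deviations from the batch means, for genes with a mean of at least 5 CPM in both groups. Its main fit had a term for batch and none for the animal, so the pairing of the hemispheres was not used. Against the contralateral punches of the same animals, 20 of 11683 genes had a larger spread on the injured side (0.171% called) and 0 a smaller one, with 1627 at an unadjusted p under 0.05 in either direction. The list holds hippocampal genes, led by Rgs14, a regulator of G protein signalling in CA2 neurons, with an SD of 0.672 against 0.0881 (limma adjusted p = 0.02909), and Gm2115 with 1.28 against 0.187. Rgs14 was at 44.55 to 65.1 CPM in the 4 punches rich in hippocampal genes and at 15.86 to 29.01 CPM in the others. The contralateral punches reached 45.84 CPM and the naive ones 51.26 CPM, both within the range of the 4. Its spread may therefore hold lower levels in the other injured punches as well as higher ones in the 4, which was not tested. The mineralocorticoid receptor gene Nr3c2 and the calcium-binding protein gene Cabp7 also had their 4 highest levels in those punches. A second set is that of the Homer1 order, with Homer1 itself at an SD of 0.574 against 0.122, and Zbtb1, Bcor, Phf13 and Lsm11. The clock gene Per3 had an SD of 0.482 against 0.109, from 33.32 CPM in QF1 to 122.6 CPM in FM3. Slco1a4, an organic anion transporter of brain endothelium, ran from 7.698 CPM in QF1 to 30.96 CPM in DF3. The call rests on few animals: 0 genes passed without QF2, 0 without RM2, and 40 passed without FM2. It also rests on the measure, since 0 passed with squared deviations, where 975 had an unadjusted p under 0.05, and with no filter 1924 had a larger and 933 a smaller spread. Among the contralateral libraries that of QF1 stood apart. Its root mean square distance was 0.425 log2 units, and the next, DF2, had 0.308. Only injured libraries were left out in turn, so the part that the contralateral library of QF1 played in these counts was not tested.

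Against the naive punches, 114 of 11643 genes had a larger spread in the injured punches (0.979% called) and 1728 a smaller one (14.8%). With squared in place of absolute deviations 0 genes were called by limma, with 3017 at an unadjusted p under 0.05, and with no filter on low counts 2051 had a larger and 2684 a smaller spread. Among the naive libraries KF3 and KM3 stood apart from the other 11. Without them, a choice made after seeing the data, 46 genes had a larger and 469 a smaller spread in the injured punches. KF3 and KM3 are both from batch B, which held 4 naive libraries against 9 in batch A. That fit therefore rests on few naive libraries of batch B. The lower spread is that of genes across the whole table, since the median SD was 0.147 in the injured punches, 0.202 in the naive ones and 0.185 in the naive ones without KF3 and KM3. Of the immune genes that varied most here, few could be compared, because they lay under 5 CPM without injury: 1 of 16 neutrophil genes was fitted against the contralateral punches and was not called.

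**Figure D5:**
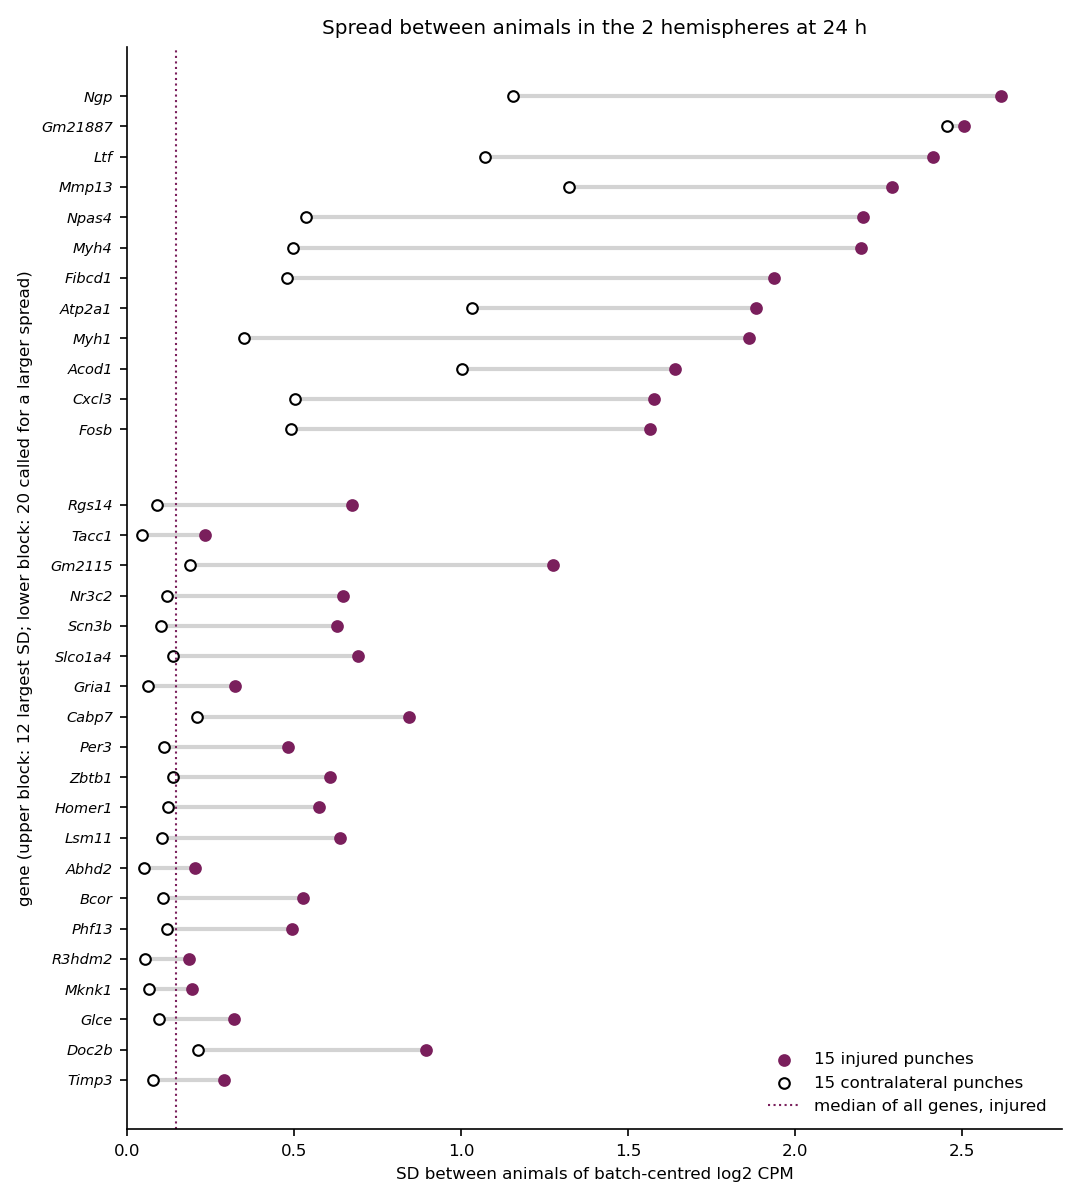
SD between animals of batch-centred log2 CPM (horizontal axis) in the 15 injured punches (filled) and the 15 contralateral punches of the same animals (open), for the 12 genes with the largest SD (upper block) and the 20 genes called for a larger spread (lower block), with the median of all genes as a dotted line. Gm21887 has nearly the same SD in both hemispheres, 2.51 and 2.46, and Rgs14 and Homer1 are close to the dotted line in the contralateral punches.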

How the data were processed

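Polyadenylated RNA of mouse cortex punches was sequenced, and the values the authors deposited are unnormalized read counts in 1 matrix of genes by libraries. The submitters' processing notes name HISAT2 2.0.5 and mm10. The sources used here do not name the counting program, annotation or strand setting, so reads of overlapping, antisense or near-identical genes may be split between them. Of 54532 gene identifiers, 54409 matched a symbol in GENCODE M21 (GRCm38), and the other 123 took 0.079% of the counts. The groups come from the titles. One ipsilateral library of another time point (72 h), whose sex differs between the labels of its hemispheres, was left unassigned and not used.

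Counts of 43 libraries (15 injured, 15 contralateral, 13 naive) were scaled by TMM, and log2 CPM was computed with a prior count of 2. Sex-linked genes matched the labels in all 43. The closest pair of injured libraries differed by a chi-square of 6.12 per gene, above the sampling noise, so each was counted as a replicate. The labels name separate animals, and the titles give the animal of each contralateral punch, so the hemispheres are paired.

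Genes passing edgeR's filterByExpr were fitted on batch and 1 anchor gene with the quasi-likelihood test (edgeR 4.0.16 in R 4.3.3), with a Benjamini-Hochberg threshold of 0.05. The spread was tested with limma 3.58.1 on scaled absolute deviations, with batch but not the animal in the main fit. A list score is the mean of batch-centred log2 CPM over members with a mean of at least 1 CPM. Correlations used permutations within batches. DESeq2 1.42.0, other normalizations, filters, covariates, anchors and each library left out were tried as alternatives. Both fits were tested on simulated data with known changes. Promoter sequences are from RefSeq (GRCm38.p6).

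The 15 punches, the anchors and the gene lists were chosen with earlier results of these data known. Named genes are the 12 with the largest SD, the anchors and their alternatives, the most variable members of each list (4 at most), the 6 largest loadings of each sign on 2 components, and the 5 slopes of each sign with the smallest p per anchor. Other list members, the hippocampal, muscle, bone and granule lists and the genes of the Homer1 order were named after their values were seen.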

Additional observations from a re-analysis of the deposited data

Results flagged for a closer look

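Within each sex (7 females and 8 males), the highest or lowest animal was set against the others by Dixon's ratio at the 95% level. Of 74 groups tested, 10 had such an animal, and all 10 were groups of list scores. Chance gives about 1 in 20 groups, and lists that share animals are not independent. All scores are means of batch-centred log2 CPM.

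For neutrophil genes, RF1 was far above the other females at 1.64 and DM2 far above the other males at 3.25. These are the 2 punches with the most bone and granule precursor genes. QF1 was apart from the other females in 4 lists, with -0.56 for homeostatic astrocyte, -0.72 for homeostatic microglia, 0.47 for heat shock and unfolded protein and 0.39 for oxidative stress and metallothionein genes. FM3 was apart from the other males for immediate early genes at 1.65, and RM1 for myelin genes at 0.85. FM2 was lowest among the males for endothelial genes at -0.31. RM2 was lowest among the males for the lymphocyte list at -0.71, a list in which 1 gene, Cd4, had a mean of at least 1 CPM.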

How the results depend on the processing

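Of the values recomputed under an alternative, 341 kept their direction and their side of the threshold or stayed within 1.5 times, 57 moved further, and 24 changed sign. Those 24 are correlations that passed the test under no setting. With batch and sex centring, r was -0.176 for S100a9 and Snap25, -0.005 for S100a9 and Adm, and 0.194 for Ifit3 between hemispheres. Without 1 library at a time, r ran from -0.129 to 0.186 for S100a9 and Ifit3, -0.56 to 0.02 for S100a9 and Gfap (0.02 without DM2), -0.213 to 0.152 for S100a9 and Snap25, -0.309 to 0.382 for Ifit3 and Gfap, -0.23 to 0.408 for Ifit3 and Snap25 and -0.174 to 0.248 for Snap25 and Adm, with -0.309, 0.408 and -0.174 all without DF3. Between hemispheres it ran from -0.428 to 0.266 for Ifit3 and -0.22 to 0.005 for Gfap. DESeq2 called more genes than edgeR for each anchor, with 161 on Ifit3, 497 on Gfap, 240 on Snap25 and 582 on Adm. With sex added to batch, 91 genes were called on Gfap, 0 on Snap25 and 36 on Adm. Vim in place of Gfap gave 1, Vegfa in place of Adm 610, the Fibcd1 term on Gfap 40, and no count filter on Snap25 2. Leaving out 1 library at a time gave 143 (DM2) to 401 genes on S100a9, 6 to 33 on Ifit3 (6 without DF3, 7 without FF3, 13 without QM2), 34 to 394 on Gfap (34 without DF3, 118 without QF2, 122 without RF1, 394 without QF1), 0 to 51 on Snap25 and 0 to 343 on Adm (0 without DF3, 48 without FM3, 40 without RM2, 56 without RF1, 176 without RM1). The spread against contralateral punches gave 2857 genes with no filter, 0 with squared deviations (975 at an unadjusted p under 0.05 by limma), 39 with batch and sex centring and 0 to 40 without 1 injured library. With the animal as a replicate block, since the titles pair the hemispheres, it gave 29. Against naive punches the counts in both directions were 4735 with no filter, 0 with squared deviations (3017 at an unadjusted p under 0.05), 515 without KF3 and KM3, and 1659 to 1881 without 1 injured library. At a mean of at least 1 CPM, 6 of the 12 most variable genes were shared. The first component then took 20.03% and the second 15.27%, and 21.4% and 18.54% with batch and sex centring. The cause of these shifts was not tested. With 12 residual degrees of freedom per slope fit, weaker relations were not detectable. A count of 0 calls is no evidence that levels did not differ.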
